A study of Rattus norvegicus with 60 samples.

Results

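Neutrophils carry a set of genes by which they can be followed in injured tissue, and 6 of these were described here across the first 48 h after skeletal muscle injury (SMI): S100a8, S100a9, Lcn2, Mmp8, Csf3r and Mpo. They were chosen by name, as 6 of the 20662 genes in the count table, and all 6 were among the 17155 genes with a total of at least 5 reads. The RNA came from right hind limb muscle of young male Sprague-Dawley rats. In the 7 injury groups a weight fell onto the limb under chloral hydrate, and the rats were killed at steps of 4 h up to 24 h, or at 48 h. There were 7 libraries at 4 h and at 20 h, and 8 at each of the other 5 times. The control group held 6 libraries of rats that took no blow and were killed with the same drug. The study assigned rats to groups at random and made each library from another rat, from wound tissue outside the central piece, which went to histology.

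The groups follow the position of a column in the count table and not its heading, because the headings went against the values. The study's supplementary expression table, in the copy used here, holds 49 libraries and 1288 complete genes. Each of these 49 libraries matched 1 count column, within 0.5 read for at least 99.7% of the genes. All 49 lay in the group that the position gives, and 9 in the group that the heading names. The other 11 columns matched no library, among them 6 of the 8 columns at 48 h. Most of the 48 h group thus rests on position alone. The study lists its samples per group after removing abnormal ones. These numbers equal those of the matched columns in every group but 48 h, where it lists 6 and 2 columns matched. The unmatched columns outside 48 h may therefore be samples that the study removed. All 11 unmatched columns were kept in the main fit, and the matched columns alone were an alternative. With the headings as deposited, 7 of the 42 member values against control muscle kept their call, and these were the Mpo values, which passed at no time. Of the others 25 turned in direction, and no call of a member as higher remained. The values under the headings are given with the alternatives.

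Neutrophils are the first white blood cells to enter damaged muscle in large numbers. They are made in bone marrow under granulocyte colony-stimulating factor (encoded by Csf3), and many of their granule proteins are transcribed there, before the cells reach the blood. S100a8 and S100a9 encode the calgranulins, which pair into a calcium-binding protein of the neutrophil cytoplasm that acts as an alarm signal outside the cell. In bulk tissue, fewer cells of a type and less RNA per cell cannot be told apart, so each level below is that of the whole piece of muscle.

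RefSeq promoter sequences (GRCr8, 250 bases before to 50 after an annotated start) were found for 5 of the 6 genes, all but S100a8. Those of S100a9, Mmp8 and Csf3r are shown because these genes had the largest changes among the 5 and followed different courses. Capitals mark matches, on either strand, to TATAAA (the TATA box), TTNNGNAA (a pattern bound by C/EBP factors) and GAGGAAG (a pattern bound by PU.1).
S100a9, chr2:178490573-178490872, minus strand: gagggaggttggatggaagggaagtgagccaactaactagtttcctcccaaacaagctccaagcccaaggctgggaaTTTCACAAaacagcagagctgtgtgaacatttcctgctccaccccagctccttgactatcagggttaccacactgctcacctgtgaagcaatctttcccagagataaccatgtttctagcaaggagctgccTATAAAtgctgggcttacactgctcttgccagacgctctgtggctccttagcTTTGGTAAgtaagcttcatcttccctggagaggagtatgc
Mmp8, chr8:13008640-13008939, plus strand: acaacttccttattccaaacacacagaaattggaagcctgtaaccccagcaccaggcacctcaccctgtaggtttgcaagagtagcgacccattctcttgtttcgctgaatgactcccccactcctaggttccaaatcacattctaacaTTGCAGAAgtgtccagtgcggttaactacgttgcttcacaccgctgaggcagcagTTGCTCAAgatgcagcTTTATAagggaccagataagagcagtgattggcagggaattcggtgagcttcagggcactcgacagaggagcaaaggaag
Csf3r, chr5:143582970-143583269, plus strand: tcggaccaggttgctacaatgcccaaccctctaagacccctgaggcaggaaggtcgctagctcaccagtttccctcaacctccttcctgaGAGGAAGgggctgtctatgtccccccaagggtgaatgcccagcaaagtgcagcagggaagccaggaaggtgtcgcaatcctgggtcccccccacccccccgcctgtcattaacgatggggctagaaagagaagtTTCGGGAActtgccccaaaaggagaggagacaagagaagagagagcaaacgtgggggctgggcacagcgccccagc
The S100a9 and Mmp8 promoters each held 1 TATAAA match, 2 TTNNGNAA matches and no GAGGAAG match. The Csf3r promoter held no TATAAA match, 1 TTNNGNAA match and 1 GAGGAAG match, as did the Lcn2 and Mpo promoters, which are not printed. The start used need not be the outermost one of the gene. The Mpo window (chr10:73092152-73092451) lies within the annotated gene, which begins at 73092124. No match overlapped one of another motif. Among 33469 rat promoters of this length, 14.2% held TATAAA, 41.3% TTNNGNAA and 12.4% GAGGAAG, and a match describes only the letters.

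The libraries had total counts of 16372673 to 34931323 and fell into 24 with totals under 25000000 and 36 above, with 3 of the lower set in every group. The summed level of 10 muscle fibre genes was 39202 to 223864 CPM (reads per 1000000, on library sizes scaled by TMM). That of 8 genes of the retina, a tissue named in the deposited extraction text, was 3.31 to 6.11 CPM at 4 h and 0.982 to 6.03 CPM at 8 h. It was 0.0343 to 0.668 CPM in control muscle. Of these 8 genes, 2 were called higher at 4, 8 and 48 h, and 1 at each of the other times. Of 10 muscle fibre genes, 8 were called lower at 24 h and 10 at 48 h, and of 14 macrophage and monocyte genes 7 were called higher at 8 h and 11 at 48 h. At 8 h 1 of these 14, Adgre1, was called lower (-1.21; edgeR, adjusted p = 0.0047). At 8 h, 7 of 9 T and B cell genes, 3 of 10 genes of eosinophils, basophils and mast cells and 2 of 9 keratinocyte genes were called higher, and lower were 2 of 7 endothelial genes, Fcer1a of the mast cell list (-1.73) and Krt10 of the keratinocyte list (-1.14). Adgre1, Fcer1a and Krt10 are named after their values were seen. Over all 17155 genes tested, 2047 were called lower than in control muscle at 8 h, 1487 at 24 h and 1172 at 48 h. Called higher were 11.5% at 4 h, 12.2% at 8 h and 10.8% at 48 h. The summed level of the T and B cell genes had a median of 13.1 CPM at 8 h (4.78 to 291), against 11.8 CPM in control muscle (7.98 to 27). It was over 200 CPM in 3 libraries, 1 each at 4, 8 and 12 h. No call of a member against control muscle changed without these libraries, and the calls of the T and B cell genes were not examined without them.

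S100a8, S100a9, Lcn2, Mmp8 and Csf3r, 5 of the 6 genes, were higher in injured than in control muscle, and Mpo passed the test at no time. At 4 h, 5 of the 6 genes were called higher than in control muscle (adjusted p under 0.05 and log2 fold change of at least 1), where 11.5% of all genes tested were. The count was 5 of 6 at 8 h (all genes 12.2%), 12 h (8.45%), 16 h (7.43%), 20 h (4.54%) and 24 h (8.81%). At 48 h, 4 of 6 were called higher, against 10.8% of all genes, and Mmp8 was the induced gene that did not pass.

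**Figure D1:**
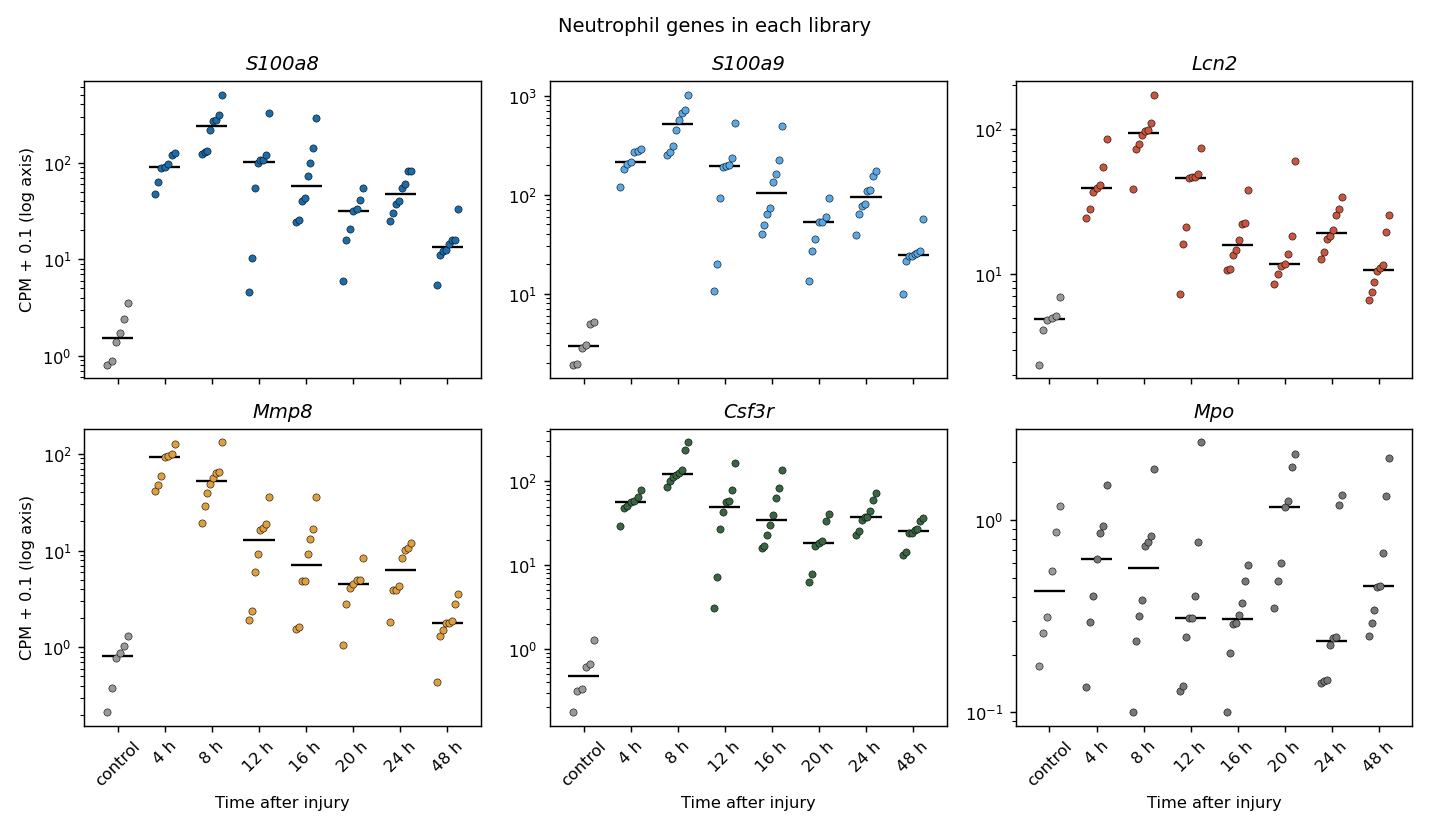
Level of each neutrophil gene in the 60 libraries, as CPM plus 0.1 on a log axis, with the control group at the left and the injury groups in order of time. Each point is 1 library and each bar a group median. For S100a8, S100a9 and Csf3r every injured library lies above every control library, and for Mpo the groups overlap.

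S100a8 had a median of 1.44 CPM in control muscle (0.708 to 3.39), 90.3 CPM at 4 h (47.7 to 126) and 242 CPM at 8 h (123 to 507). The medians were 102 CPM at 12 h (4.45 to 323), 57.4 CPM at 16 h (23.9 to 288) and 31.4 CPM at 20 h (5.86 to 54.7). Then followed 47.2 CPM at 24 h (24.8 to 81.9) and 13.3 CPM at 48 h (5.25 to 33.1). The highest median was at 8 h, and no injured library lay as low as the highest control library. At 12 h the lowest and the highest library were both unmatched columns, and the 6 matched ones ran from 10.3 to 119 CPM. The study lists 6 samples at 12 h after removing abnormal ones, so both unmatched columns may be among those it removed. Against control muscle S100a8 rose by 5.69 ± 0.69 on the log2 scale at 4 h, 7.13 ± 0.73 at 8 h and 3.10 ± 0.62 at 48 h (SE; edgeR quasi-likelihood test, adjusted p = 1.2e-09, 9.9e-12 and 5.5e-05). Between these times, at 12, 16, 20 and 24 h, the log2 fold change was 5.88, 5.71, 4.05 and 4.87 in this order.

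S100a9, which encodes the partner of S100a8, had a median of 2.82 CPM in control muscle (1.81 to 5.03), 215 CPM at 4 h (120.4 to 289) and 511 CPM at 8 h (251 to 1024). The medians were 194 CPM at 12 h (10.5 to 527), 103 CPM at 16 h (39.9 to 490.0) and 52.7 CPM at 20 h (13.3 to 92.9). Then followed 94.3 CPM at 24 h (39.1 to 173) and 24.5 CPM at 48 h (9.88 to 56). The highest median was again at 8 h and the lowest of the injury groups at 48 h, and again no injured library overlapped the control libraries. The log2 fold change against control muscle was 6.10 ± 0.66 at 4 h, 7.35 ± 0.69 at 8 h and 3.03 ± 0.57 at 48 h (SE; edgeR, adjusted p = 5.4e-11, 1.1e-12 and 2.1e-05).

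Lcn2 encodes lipocalin 2, a specific granule protein that binds the siderophores with which bacteria take up iron, and other inflamed cells make it too. Its median was 4.79 CPM in control muscle (2.26 to 6.85), 38.9 CPM at 4 h (24.2 to 84.4) and 93.4 CPM at 8 h (38.5 to 172). The medians were 46 CPM at 12 h (7.2 to 73.7), 15.8 CPM at 16 h (10.5 to 38) and 11.5 CPM at 20 h (8.4 to 59.5). Then followed 19 CPM at 24 h (12.5 to 33.6) and 10.6 CPM at 48 h (6.48 to 25.5). Every injured library lay above the control libraries except 1 at 48 h. The log2 fold change was 3.23 ± 0.44 at 4 h, 4.34 ± 0.46 at 8 h and 1.41 ± 0.41 at 48 h (SE; edgeR, adjusted p = 2.7e-08, 2.8e-11 and 0.0045). In the 36 libraries with totals over 25000000 alone, Lcn2 passed neither at 20 h (1.04, adjusted p = 0.28) nor at 48 h (0.69, adjusted p = 0.29).

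Mmp8 encodes neutrophil collagenase, a specific granule protease that cleaves fibrillar collagen. Its median was 0.723 CPM in control muscle (0.113 to 1.22), 92 CPM at 4 h (41.4 to 127) and 52.4 CPM at 8 h (19.3 to 132). The medians were 12.7 CPM at 12 h (1.84 to 35.6), 6.95 CPM at 16 h (1.45 to 35.5) and 4.37 CPM at 20 h (0.957 to 8.22). Then followed 6.26 CPM at 24 h (1.74 to 11.8) and 1.7 CPM at 48 h (0.335 to 3.43). Of the induced genes Mmp8 was the one with its highest median at 4 h, and it overlapped the control libraries at 20 h and at 48 h, by 1 library each. The log2 fold change was 6.88 ± 0.75 at 4 h, 6.36 ± 0.73 at 8 h and 2.66 ± 0.68 at 20 h (SE; edgeR, adjusted p = 5.4e-11, 2.0e-10 and 0.0038). The call at 20 h was lost in each set of libraries by total count taken alone. At 48 h Mmp8 differed from control muscle by 1.39 ± 0.67 (95% confidence interval 0.0356 to 2.74, adjusted p = 0.094), a value that passed in DESeq2 (1.43, adjusted p = 0.030).

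Mpo encodes myeloperoxidase of the azurophil granules, which are filled early in the marrow. The study stained this protein to label neutrophils and reported that their infiltration varied over the first 24 h. The values here are of RNA and do not measure the protein. Mpo had few reads, with a median of 7.5 per control library (1 to 29), 8 at 4 h (1 to 37) and 8.5 at 8 h (0 to 53). The median level was 0.329 CPM in control muscle (0.075 to 1.09), 0.531 CPM at 4 h (0.0358 to 1.42) and 0.461 CPM at 8 h (0 to 1.74), then 0.209 CPM at 12 h (0.0296 to 2.45) and 0.206 CPM at 16 h (0 to 0.483). It was 1.07 CPM at 20 h (0.25 to 2.11), 0.134 CPM at 24 h (0.0416 to 1.25) and 0.352 CPM at 48 h (0.149 to 2.02), and every injury group overlapped the control group. A library at 8 h and another at 16 h had 0 Mpo reads, which allows up to 0.207 and 0.0844 CPM (3 reads, counting error only). The log2 fold changes ran from -1.03 ± 0.82 at 16 h to 1.15 ± 0.82 at 20 h (SE; edgeR, adjusted p = 0.34 for both). The 95% confidence interval at 8 h, -1.34 to 1.87, held changes past the threshold in both directions. At 20 h, where the Mpo median was highest, the summed level of 7 red cell genes was 1274 to 2642 CPM, against 576 to 1643 CPM in control muscle, and none of the 7 was called at 20 h. The sum was 552 to 3193 CPM at 4 h, where the Mpo median was 0.531 CPM, and all 7 genes were called lower at 16 and 48 h. At 20 h against 16 h, 6 of the 7 were called higher, where 147 of the 17155 genes tested were. At 24 h against 20 h, 6 of the 7 were called lower, where 259 of all genes were. Mpo differed by 2.18 and -1.53 in these comparisons and did not pass. The part of blood in the Mpo level was not tested.

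Csf3r encodes the receptor for granulocyte colony-stimulating factor on the neutrophil surface. Its median was 0.375 CPM in control muscle (0.075 to 1.19), 55.9 CPM at 4 h (29.3 to 78) and 122 CPM at 8 h (85.8 to 294). The medians were 49.9 CPM at 12 h (2.98 to 165), 34.5 CPM at 16 h (15.9 to 137) and 18.1 CPM at 20 h (6.17 to 40.2). Then followed 37.9 CPM at 24 h (22.6 to 72.3) and 25.3 CPM at 48 h (13.2 to 36.3). No injured library overlapped the control libraries. The log2 fold change was 6.88 ± 0.71 at 4 h, 8.33 ± 0.73 at 8 h and 5.73 ± 0.68 at 48 h (SE; edgeR, adjusted p = 1.2e-11, 1.5e-13 and 1.9e-09), the largest of the 6 genes in each case, although at 4 h that of Mmp8 was 6.88 as well. A control library held 1 to 17 Csf3r reads, so the size of these changes rests on few control reads.

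**Figure D2:**
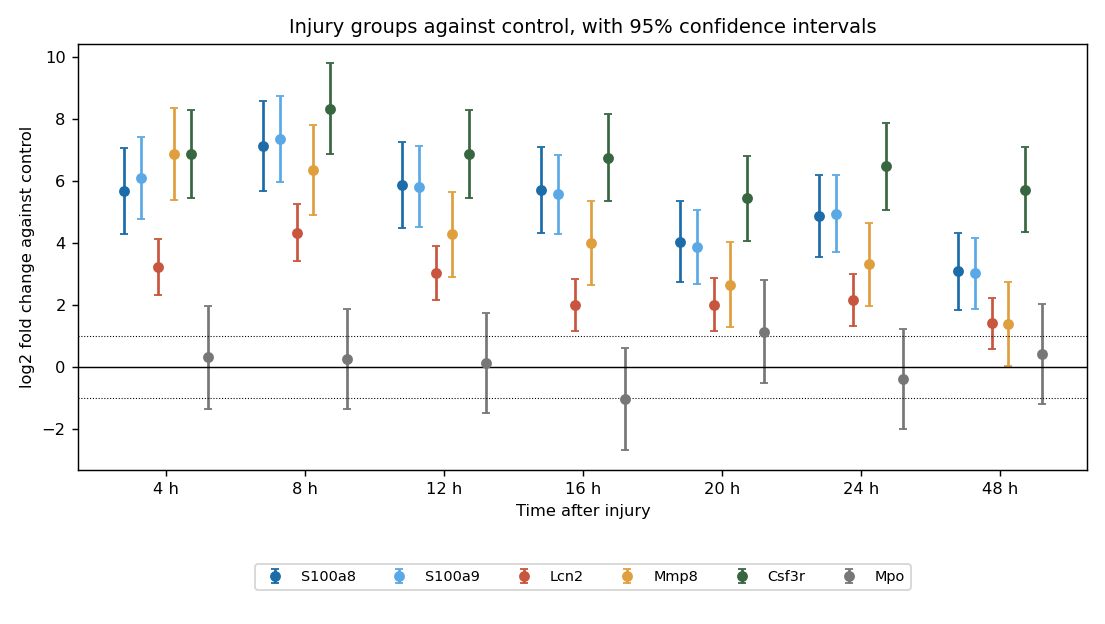
log2 fold change of each neutrophil gene against control muscle at the 7 times after injury, from the edgeR fit over all 60 libraries, with 95% confidence intervals and dotted lines at 1 and -1. At 48 h Csf3r is at 5.73 and S100a8 at 3.10, and every interval of Mpo spans 0.

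Counted without a model, 5 of the 6 genes had all libraries above the control libraries at 4 h, where 12.9% of all genes did. The count was 5 at 8 h (all genes 14.5%), 12 h (4.86%), 16 h (11.5%) and 24 h (15.1%). It was 4 at 20 h (5.86%) and 3 at 48 h (10.7%). S100a8, S100a9 and Csf3r did not overlap at any of the 7 times.

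Single libraries often stood at the edge of their group for several members. At 12 h, 1 library was lowest for all 5 induced genes, with 4.45 CPM of S100a8, 10.5 CPM of S100a9 and 2.98 CPM of Csf3r. It matched no library of the supplementary table, so that its group rests on position alone, and it may be a sample that the study removed. Its summed level of 14 macrophage and monocyte genes, 295 CPM, was the lowest at 12 h, and its muscle fibre sum was 177195 CPM, against 177705 to 214233 CPM in control muscle. Without Lyz2, the lysozyme gene, which neutrophils also express, its macrophage sum was 197 CPM, against 181 to 286 CPM in control muscle. At 8 h, 1 library was highest for all 5 genes, with 507 CPM of S100a8 and 132 CPM of Mmp8. Its macrophage and monocyte sum, 2304 CPM, was the highest at 8 h, and its muscle fibre sum, 103007 CPM, the lowest. Of that macrophage sum Lyz2 gave 2003 CPM, and the other 13 genes gave 301 CPM, where the 8 h libraries ran from 187 to 781 CPM. Their part in the levels of the members was not tested.

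Each time was then set against the time before it, in the same fit. These comparisons share libraries and are not independent. At 8 h against 4 h, 3 of 6 members were called higher, where 1.56% of all genes were. Csf3r rose by 1.45 ± 0.46, S100a8 by 1.44 ± 0.51 and Lcn2 by 1.11 ± 0.37 on the log2 scale (SE; edgeR, adjusted p = 0.021, 0.039 and 0.028). S100a9 differed by 1.25 ± 0.48 (adjusted p = 0.062) and Mmp8 by -0.51 ± 0.49 (adjusted p = 0.50). Without the 8 h library that was highest for 5 genes, none of the 3 passed (adjusted p = 0.058 for Csf3r, 0.10 for S100a8 and 0.079 for Lcn2). Counting columns from 1 in the order of the table, S100a8 did not pass without column 2, 3, 5 or 7 of the 4 h group or 8, 9, 11 or 14 of the 8 h group (adjusted p = 0.051 to 0.10), nor Lcn2 without column 2, 4, 5 or 7 of the 4 h group or 14 of the 8 h group (adjusted p = 0.051 to 0.079). S100a9 passed in DESeq2 (adjusted p = 0.034), with the matched libraries alone (1.35, adjusted p = 0.032) and in edgeR without column 13 or 15 of the 8 h group.

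At 12 h against 8 h, 4 of 6 members were called lower, where 2.89% of all genes were. Mmp8 fell by 2.07 ± 0.49, S100a9 by 1.53 ± 0.46, Csf3r by 1.46 ± 0.44 and Lcn2 by 1.31 ± 0.35 on the log2 scale (SE; edgeR, adjusted p = 0.0015, 0.013, 0.012 and 0.0052). S100a8 differed by -1.26 ± 0.48 (adjusted p = 0.051) and passed in DESeq2 (adjusted p = 0.030), with the matched libraries alone (-1.65, adjusted p = 0.0083), with DESeq2's size factors, edgeR's own filter or the class of total count as a term (adjusted p = 0.047, 0.045 and 0.040), without the 3 columns rich in T and B cell genes, and without column 10, 13 or 15 of the 8 h group or 23 of the 12 h group. With library totals in place of TMM scaling, 2 members passed, Mmp8 and Lcn2. At 16 h against 12 h, 0 of 6 members passed in edgeR or DESeq2, where 0.525% of all genes did in edgeR, and 1, Lcn2, had an unadjusted p under 0.05.

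At 20 h against 16 h, 0 of 6 members passed in edgeR, where 1.11% of all genes did, and 5 had an unadjusted p under 0.05. Of these 5, S100a8, S100a9, Mmp8 and Csf3r were lower, and Mpo was higher (2.18 ± 0.78, edgeR, adjusted p = 0.13). S100a8 differed by -1.67 ± 0.51 (adjusted p = 0.071) and S100a9 by -1.69 ± 0.49 (adjusted p = 0.053), and these 2 passed in DESeq2. S100a9 passed in edgeR without column 26, 27, 29 or 31 of the 16 h group or 38 of the 20 h group, and S100a8 without column 26. At 24 h against 20 h, 0 of 6 passed in edgeR or DESeq2, where 1.81% of all genes did in edgeR, and 3 had an unadjusted p under 0.05. Of these 3, S100a9 and Csf3r were higher, and Mpo was lower (-1.53 ± 0.75, edgeR, adjusted p = 0.20). S100a9 differed by 1.08 ± 0.48 and Csf3r by 1.03 ± 0.46 (adjusted p = 0.16 for both). With library totals these 2 genes passed.

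At 48 h against 24 h, 3 of 6 members were called lower, where 0.35% of all genes were. Mmp8 fell by 1.93 ± 0.52, S100a9 by 1.92 ± 0.47 and S100a8 by 1.77 ± 0.49 on the log2 scale (SE; edgeR, adjusted p = 0.016, 0.0076 and 0.020). Csf3r differed by -0.74 ± 0.44 (adjusted p = 0.34) and Lcn2 by -0.76 ± 0.36 (adjusted p = 0.21). With the matched libraries alone, 2 of them at 48 h, none of the 3 passed (S100a8 -2.13, S100a9 -2.04 and Mmp8 -1.72, adjusted p = 0.13, 0.13 and 0.31). Nor did they in either set of libraries by total count.

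**Figure D3:**
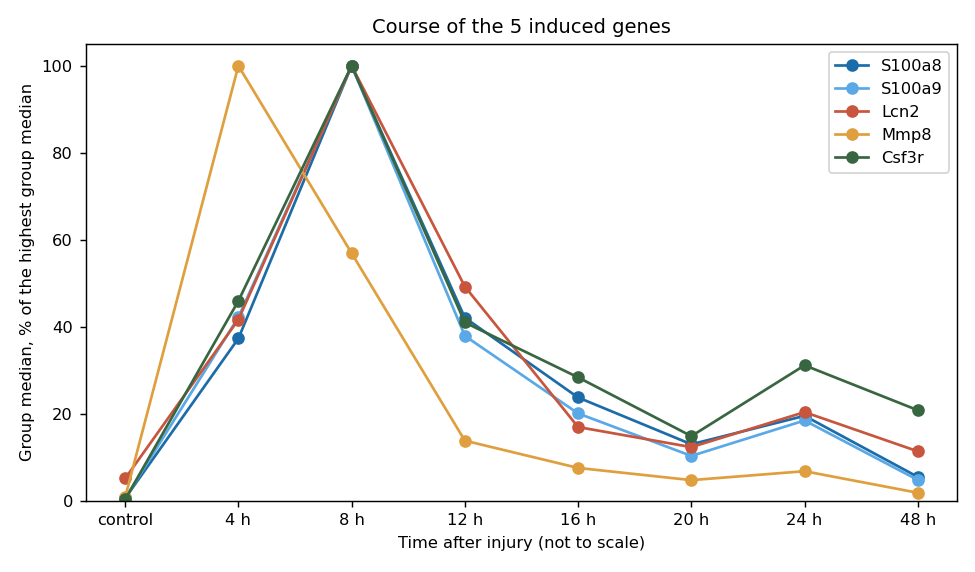
Group median of the 5 induced genes in control muscle and at each time, as a percentage of the highest group median of that gene. Mmp8 is at 56.9% at 8 h, against 100% at 4 h, the other 4 genes are at 100% at 8 h, and at 48 h Csf3r is at 20.8% and S100a8 at 5.48%.

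As a percentage of its own highest group median, Mmp8 stood at 13.8% at 12 h, while S100a8 stood at 42.1%, S100a9 at 37.9%, Csf3r at 41% and Lcn2 at 49.2%. At 48 h Csf3r stood at 20.8% and Lcn2 at 11.4%, while S100a8 stood at 5.48%, S100a9 at 4.79% and Mmp8 at 1.84%.

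To compare the courses without any scaling between libraries, the reads of each gene were divided by the S100a8 reads of the same library (0.5 added to each), and each later time was compared with 4 h by exact permutation tests (two-sided, 30 tests). Mmp8 had a median of 0.223 reads per S100a8 read at 8 h, against 0.869 at 4 h. The mean log2 ratio was -2.17 ± 0.27 at 8 h, against -0.20 ± 0.25 at 4 h (SD, n = 8 and 7), a difference of -1.97 (exact permutation p = 3.1e-04, the smallest these numbers allow, adjusted p = 0.0016). The difference was -2.45 at 12 h, -3.08 at 16 h and -2.92 at 48 h and passed at all 6 later times, and no later library had a ratio as high as the lowest 4 h library. The differences were -2.0 to -3.27 in the libraries with totals under 25000000 and -1.93 to -3.11 in those above. With the matched libraries alone it passed at the first 5 of these times. At 48 h it was then -2.34, with 2 libraries, and the smallest p of the exact permutation test was 0.071, so that it could not pass.

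The Csf3r ratio was higher late. Its mean log2 value was -0.66 ± 0.37 at 8 h, against -0.69 ± 0.43 at 4 h (SD, n = 8 and 7), a difference of 0.03 (exact permutation p = 0.88). At 24 h it was -0.27 ± 0.20, a difference of 0.43 from 4 h (exact permutation p = 0.022, adjusted p = 0.044). At 48 h it was 0.82 ± 0.52, a difference of 1.52 (exact permutation p = 6.2e-04, adjusted p = 0.0017), with a median of 1.92 Csf3r reads per S100a8 read at 48 h, against 0.615 at 4 h. The difference at 48 h was 1.53 in the libraries with the lower totals and 1.5 in the others. With the matched libraries alone it was 1.81 on 2 libraries at 48 h, too few for this test to pass, and at 24 h it was 0.42 (exact permutation, adjusted p = 0.097). The summed level of 14 macrophage and monocyte genes was 1225 to 3114 CPM at 48 h, against 582 to 2002 CPM at 4 h and 231 to 386 CPM in control muscle, with 11 of the 14 called higher at 48 h. Lyz2 alone gave 514 to 1849.8 CPM at 48 h, against 367 to 1189.6 CPM at 4 h and 50.4 to 99.5 CPM in control muscle, and the other 13 genes gave 705 to 1264 CPM, 164 to 813 CPM and 181 to 286 CPM in these groups. Marco, a receptor of resident macrophages, had no read in 19 libraries, and no other gene of the list was at 0 in any. Their part in the Csf3r level was not tested.

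S100a9 stayed close to S100a8, yet its ratio was lower at each later time. There were 1.68 S100a9 reads per S100a8 read in the median library at 16 h, against 2.43 at 4 h. The mean log2 ratio differed from that at 4 h by -0.55 at 16 h (exact permutation p = 3.1e-04, adjusted p = 0.0016) and by -0.20 at 8 h (adjusted p = 0.049 by the exact permutation test), and all 6 later times passed, although with the matched libraries alone the value at 8 h did not (-0.22, adjusted p = 0.089) and that at 48 h could not. The Lcn2 ratio differed from 4 h by -0.84 to 0.84 and passed at none of the 6 times, with no unadjusted p under 0.05, and its SD at 4 h was 0.75, against 0.19 for S100a9. The Mpo ratio was higher at 20 h by 2.86 and at 48 h by 2.81 (exact permutation, adjusted p = 0.0017 and 0.0040), on 5 to 63 Mpo reads per library at 20 h, 6 to 47 at 48 h and 1 to 37 at 4 h. With the matched libraries alone, 2 of them at 48 h, the Mpo value at 48 h was 4.44 and could not pass.

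**Figure D4:**
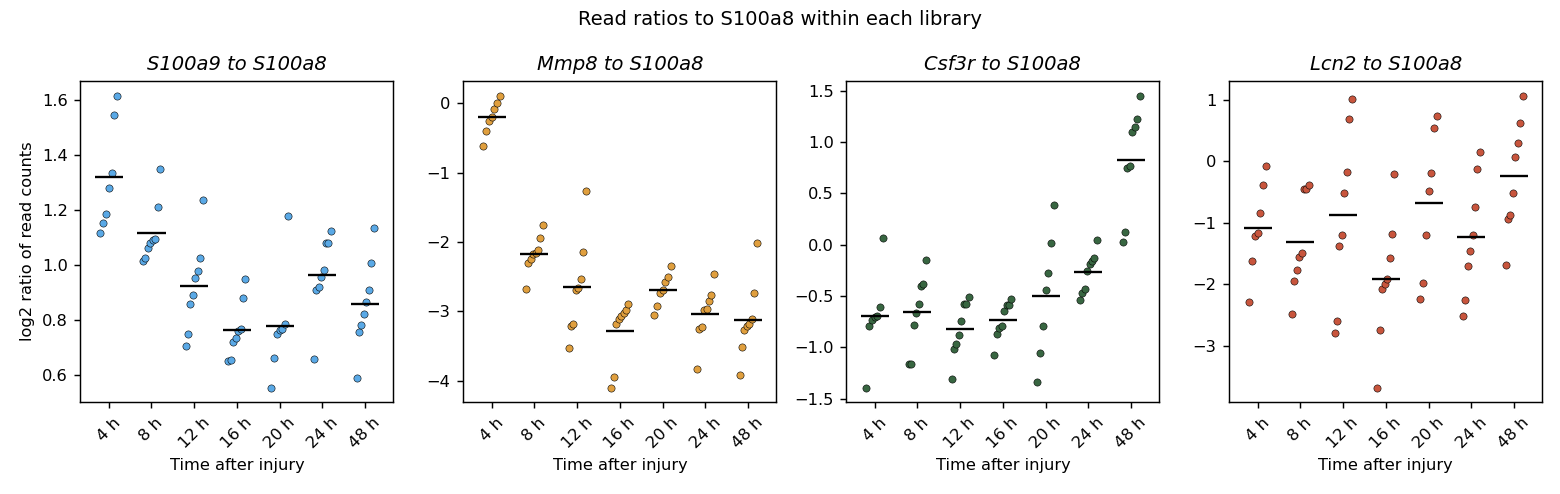
log2 ratio of the reads of S100a9, Mmp8, Csf3r and Lcn2 to those of S100a8 in each injured library, by time after injury, each panel with its own axis. Points are libraries and bars group means. The Mmp8 mean is -2.17 at 8 h, against -0.20 at 4 h, and the Csf3r mean is 0.82 at 48 h, against -0.69 at 4 h.

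Within a time point, libraries that were high for 1 of S100a8, S100a9, Mmp8 and Csf3r were high for the others. The relation was measured over the 60 libraries as deviations from the group mean of log2 normalised counts, with permutation within groups (100000 resamples, 15 pairs), and the points share the library, its scaling and the cut piece of muscle. S100a8 and S100a9 had r = 0.99 and rho = 0.98 (permutation p = 1e-05 for each, the smallest these resamples allow, adjusted p = 2.5e-05), and r was 0.98 without the 2 libraries farthest from the median. S100a9 and Mmp8 had r = 0.92 and rho = 0.93, and S100a8 and Csf3r r = 0.86 and rho = 0.80 (permutation, adjusted p = 2.5e-05 for each), with r = 0.93 and 0.79 without the 2 farthest libraries. Within the libraries under 25000000 the r of these 3 pairs was 0.98, 0.93 and 0.77, and within those above it was 0.99, 0.93 and 0.89.

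Lcn2 followed the others less closely. With S100a8 it had r = 0.44 (permutation p = 0.0057, adjusted p = 0.012) and rho = 0.29 (adjusted p = 0.064), and r was 0.29 without the 2 farthest libraries. The 4 pairs of Lcn2 with another induced gene passed by r and none by rho, and in the libraries with the lower totals none of the 4 passed by r and in the others Lcn2 and Mmp8 did not. Mmp8 and Mpo had r = -0.32 (permutation, adjusted p = 0.030) and rho = -0.28 (adjusted p = 0.064), and the other 4 pairs with Mpo did not pass. That of Mmp8 and Mpo did not pass in the libraries with the lower totals either (r = -0.15). Nor did it with library totals in place of TMM scaling (r = -0.27, permutation, adjusted p = 0.069), and it rests on 0 to 66 Mpo reads per library.

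A further 77 genes, in 9 lists of neutrophil receptors, granule proteins, oxidase, Csf3 axis, calgranulin receptors, protease inhibitors and iron handling, were counted in the same fit. Several of them, such as Timp3, Tfrc and Socs3, are made by other cells of muscle too. At 8 h, 50 of the 77 were called higher than in control muscle and 1 lower, with a median log2 fold change of 2.89, beside -0.03 over all genes. At 48 h, 45 were called higher and 5 lower, with a median of 2.28, beside 0.04. Of all genes, 11.5% were called higher at 4 h, 12.2% at 8 h and 10.8% at 48 h. The counts of the single lists below are to be read beside these shares. At 12 h against 8 h, 1 of the 77, the Fc receptor gene Fcgr3a, was called higher and 22 lower, where 2.89% of all genes were lower.

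Of 19 other neutrophil surface receptors, 17 were called higher at 4 h, 17 at 8 h and 18 at 48 h, and none lower. Cxcr2, the receptor for the chemokines that draw neutrophils, had a median of 32.8 CPM at 8 h (19.2 to 86.7), against 0.25 CPM in control muscle (0.0753 to 0.42). Il1r2, a decoy receptor for interleukin 1, had a median of 180.5 CPM at 8 h (65.9 to 351), against 0.376 CPM in control muscle (0.113 to 0.708). At 48 h the log2 fold change against control muscle was 2.87 for Cxcr2 and 3.36 for Il1r2, beside 7.39 and 9.03 at 8 h. Both genes, with Trem1, an activating receptor of neutrophils and monocytes, and Clec4d, a receptor for microbial glycolipids, were called higher at all 7 times.

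Of 11 genes of the Csf3 axis and granulocyte transcription factors beside Csf3r, 9 were called higher at 4 h, 10 at 8 h and 7 at 48 h, none lower, and Gfi1 passed at no time. Csf3, the ligand of the receptor that Csf3r encodes, was highest at 4 h. It had a median of 91.5 CPM at 4 h (72.4 to 149), while the 6 control libraries held 1 Csf3 read in all, so that the size of its change rests on that read. At 8 h against 4 h Csf3 fell by 1.92 ± 0.50 (SE; edgeR, adjusted p = 0.0051), whereas Csf3r rose. Csf3 was called higher than in control muscle at 5 times, up to 20 h. Socs3, an inhibitor that such cytokines induce, was at 631 CPM at 4 h (289.7 to 709), against 7.12 CPM in control muscle (3.05 to 11.3). Csf2, a related growth factor, was called higher at 4 times, up to 16 h, and had 3 reads over the control libraries. Cebpe, a transcription factor of late granulocyte maturation, was called higher at all 7 times, with 2.42 CPM at 48 h (1.17 to 3.56) and 3 reads over the control libraries.

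The granule lists did not move as 1 group. Of 7 azurophil granule genes beside Mpo, 2 were called higher at 8 h, Elane and Bpi, and 1 at 48 h, Ctsc, with none lower. Of all genes 12.2% and 10.8% were called higher at these times, so that such small counts say little about the list. Elane, neutrophil elastase, had a median of 2.34 CPM at 8 h (0.847 to 4.56), while 4 of 6 control libraries had no read. Bpi, a protein that kills bacteria, had 21 reads over the 4 h libraries and none in control muscle, and its median was at least 3.12-fold higher (3 reads over the control group). Prtn3, proteinase 3, passed at 12 h alone, with 55 reads there and 3 in control muscle. At 12 h 4 of the 8 libraries had no Prtn3 read, and the median was 0.0786 CPM (0 to 1.11). Ctsc, a protease that activates others and is made by many cells, was at 133 CPM at 48 h (61.7 to 172), against 58.7 CPM in control muscle (50.5 to 64.9).

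Of 6 specific granule genes beside Lcn2 and Mmp8, 2 were called higher at 8 h, Hp and Camp, where 12.2% of all genes were. Hp, haptoglobin, was at 39.9 CPM at 8 h (13.2 to 93.9), against 2.73 CPM in control muscle (1.75 to 3.81). Camp, the cathelicidin peptide, was at 2.7 CPM at 4 h (1.14 to 5.59), against 0.279 CPM in control muscle (0.0753 to 0.77). Ltf, lactoferrin, was called lower at 16, 20 and 48 h, but the control libraries held 4 Ltf reads in all, and Ngp was called lower at 24 h. In the gelatinase granule and secretory vesicle list, 7 of 9 genes were called higher at 8 h and 5 at 48 h, and Alpl, an alkaline phosphatase, was called lower at 12 h and later. Mmp9, a gelatinase, was at 8.95 CPM at 8 h (7.53 to 27.1), against 0.215 CPM in control muscle (0.0393 to 0.96). Pglyrp1, a protein that binds bacterial walls, was at 8.62 CPM at 8 h (4.44 to 21.4), against 0.221 CPM in control muscle (0.103 to 0.42). Slc11a1, a metal transporter of phagocytes, was called higher at all 7 times and was at 27 CPM at 48 h (14.2 to 37.6), against 1.31 CPM in control muscle (0.301 to 1.61). Fpr1, a receptor for bacterial peptides, had no control read and at 4 h was at least 59.6-fold higher (a median of 1.46 CPM, against 3 reads over the control group).

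**Figure D5:**
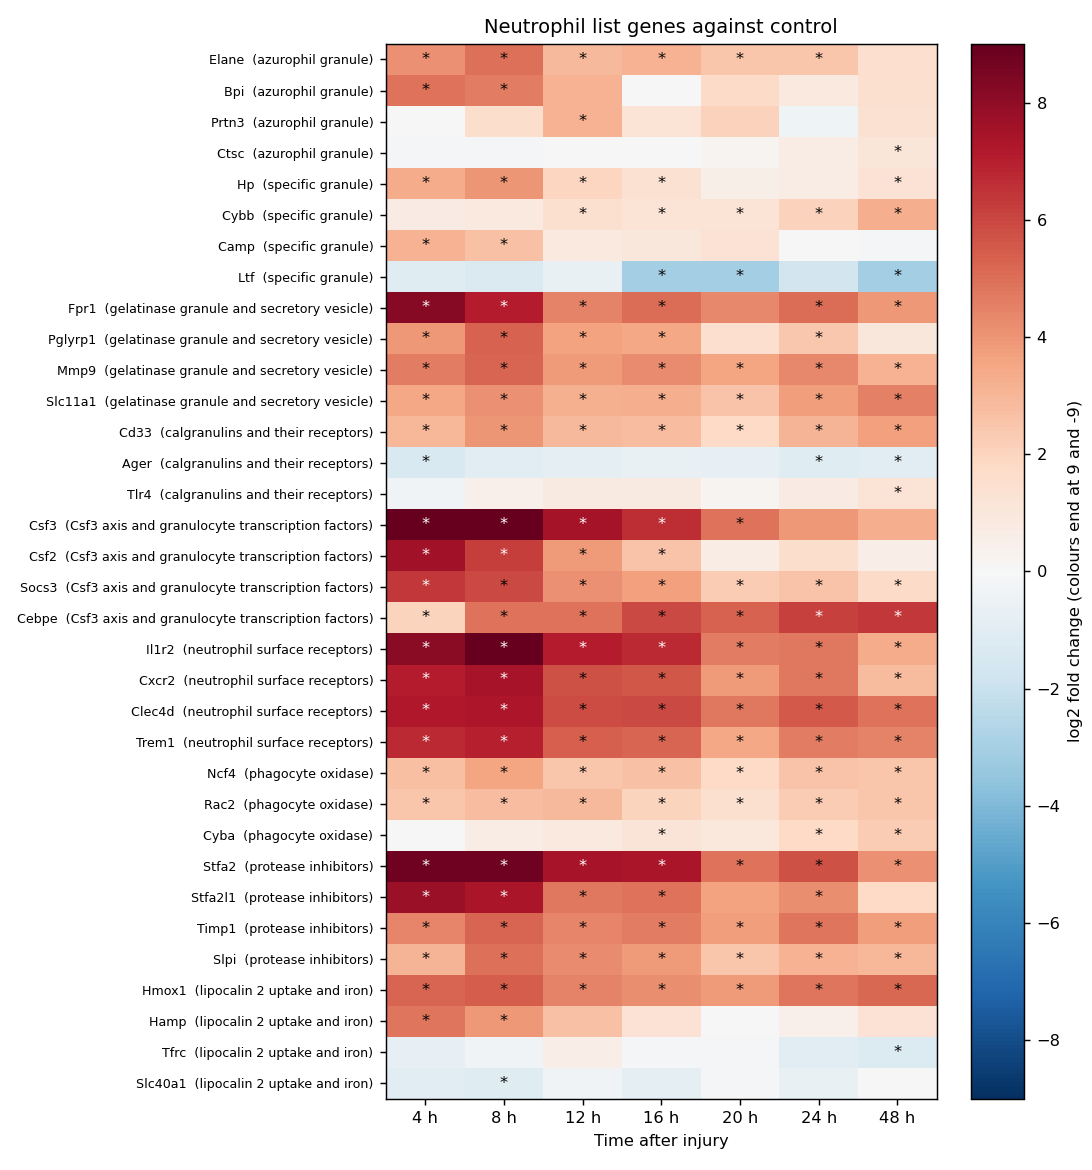
log2 fold change against control muscle at the 7 times after injury for the list genes with the largest changes, at most 4 from each of the 9 lists, with an asterisk where a gene passed the test and colours that end at 9 and -9. Csf3 is at 12.90 at 4 h and 3.29 at 48 h, and genes with few or no control reads have fold changes that depend on the fit.

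Some lists had more genes called at 48 h than at 8 h. Of 5 genes of the phagocyte oxidase, 5 were called higher at 48 h and 2 at 8 h, Ncf4 and Rac2, which passed at all 7 times. Cybb, the catalytic subunit, which macrophages also make, was at 157 CPM at 48 h (56.7 to 209.7), against 14.8 CPM in control muscle (11.8 to 22.1). Of 4 genes beside the calgranulins in the list of their receptors, Cd33, a sialic acid receptor, was called higher at all 7 times. Ager, a receptor for advanced glycation products that S100 proteins bind, fell by 1.34 ± 0.20 at 4 h (SE; edgeR, adjusted p = 2.0e-07) and was called lower at 24 and 48 h too. Tlr4, another such receptor, was called higher at 48 h alone, at 13 CPM at 48 h (6.27 to 16.6), against 4.59 CPM in control muscle (3.75 to 7.44).

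Of 11 protease inhibitors, 7 were called higher at 8 h and 5 at 48 h, where Timp3 was called lower. Slpi, an inhibitor of elastase, was at 155 CPM at 8 h (58.7 to 269), against 5.08 CPM in control muscle (0.866 to 11.4). Timp1, an inhibitor of matrix metalloproteinases such as Mmp8, was at 364 CPM at 8 h (171 to 658), against 9.19 CPM in control muscle (8.63 to 11.3). Both were called higher at all 7 times, as was Stfa2, a cystatin with 1 control read. Of 6 genes of lipocalin 2 uptake and iron handling, 2 were called higher at 8 h, Hmox1 and Hamp, where 12.2% of all genes were, and 1 lower. Hmox1, haem oxygenase, was at 323 CPM at 8 h (186 to 814), against 8.09 CPM in control muscle (6.98 to 10.9) and was called higher at all 7 times. Hamp, hepcidin, had 2 control reads. Slc40a1, the iron exporter, fell by 1.11 ± 0.28 at 8 h and Tfrc, the transferrin receptor, by 1.22 ± 0.31 at 48 h (SE; edgeR, adjusted p = 8.3e-04 and 0.0011).

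Over the 8 group means of log2 CPM, the genes with the course most like that of each member were looked up among 9454 genes whose highest group mean was at least 10 CPM. Between members, r was 0.997 for S100a8 and S100a9 and 0.77 for Mmp8 and Csf3r. The nearest other gene was Sectm1b for S100a8 (r = 0.996), Ddx21 for S100a9 (0.992), Hyal2 for Lcn2 (0.987), Pde12 for Mmp8 (0.998), Pstpip1 for Csf3r (0.994) and Phlda3 for Mpo (0.797). Next came PVR and Eif1a for S100a8, Rrad and Ifit1bl for S100a9, Cebpb and Vps4b for Lcn2, Bcl10 and Ippk for Mmp8, Glipr2 and Zdhhc18 for Csf3r, and Atf7ip and Gpd1l for Mpo. With 8 points and 9454 genes, high values of r are common, and the likeness describes the course alone.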

How the data were processed

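Poly-A RNA of 60 muscle pieces was sequenced in pairs. The deposited table holds raw counts per gene for 60 columns. The authors trimmed reads with Trimmomatic, aligned them to rn6 with HISAT2 2.1.0 and used HTSeq 0.6.1 to count, by strand, read pairs with 1 alignment to 1 gene, on an Ensembl annotation of this build. Multi-mapped reads are thus lost, which can lower genes with near-identical copies such as Stfa2. Quality was viewed with FastQC and MultiQC.

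Columns were placed in groups by position, checked against the study's supplementary table, which was used for this match alone. Counts were fitted with edgeR 4.0.16 in R 4.3.3 (quasi-likelihood test, TMM, all 60 columns, group as the only term) on the 17155 genes with a total of at least 5 reads, with Benjamini-Hochberg adjustment over these genes. A gene was called at an adjusted p under 0.05 and a 2-fold change. CPM use the TMM library sizes. DESeq2 1.42.0 was an alternative, as were other scalings, filters and sets of columns. Exact and random permutation tests used scipy 1.17.1 and numpy 2.4.6 in Python 3.11.15. Intervals are at 95% and limits for a count of 0 at 3 reads, both for counting error where a count is concerned. The edgeR step was tested on simulated data.

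The members, and the lists of granule genes, receptors, Csf3 axis, oxidase, inhibitors, iron genes and cell type markers, were chosen with earlier results of these data known. From each neutrophil list the text names the called genes, at most 4, with the largest log2 fold change at any time, and any gene that a count of 5 or fewer singles out. The 3 genes most like each member were taken by Pearson's r over the 8 group means of log2(CPM + 1). P-values of the group comparisons judge a difference against the spread between libraries of a group, each from another rat. Those of the relations between members come from permutation of libraries within groups.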

Additional observations from a re-analysis of the deposited data

Results flagged for a closer look

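In 48 sets of 1 gene in 1 group, 3 had a library far from the others by Dixon's criterion on log2 normalised counts with 0.5 added, where chance gives about 1 in 20. At 20 h, 1 library had 59.5 CPM of Lcn2, and the next highest 18.2 CPM. At 48 h, 1 library had 0.335 CPM of Mmp8, and the next lowest 1.23 CPM. That library matched none of the 49 libraries of the supplementary table. At 16 h, 1 library had 0 CPM of Mpo, and the next lowest 0.102 CPM. That library was the highest at 16 h for S100a8, S100a9, Mmp8 and Csf3r. On the CPM scale itself the gap was 0.809, 0.287 and 0.212 of the range for these Lcn2, Mmp8 and Mpo values, and only that of Lcn2 was over the limit for its number of libraries. The 0 reads of Mpo allow up to 0.0844 CPM, so that its distance rests on the 0.5 added.

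The change since injury differed between neighbouring times, by the edgeR test of the difference, in 10 cases. At 8 h against 4 h the difference on the log2 scale was 1.44 for S100a8, 1.11 for Lcn2 and 1.45 for Csf3r. At 12 h against 8 h it was -1.53 for S100a9, -1.31 for Lcn2, -2.07 for Mmp8 and -1.46 for Csf3r. At 48 h against 24 h it was -1.77 for S100a8, -1.92 for S100a9 and -1.93 for Mmp8.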

How the results depend on the processing

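The library names of the supplementary table number the 49 matched columns, but each library came from another rat. Deviations from the group means of 124 pairs with the same number had a mean r of 0.025 (lowest -0.35), 8 of 48 columns were closest to their own number, and the numbers were not taken to pair the libraries. With the number as a replicate block on the matched columns, 41 of 42 values against control kept their call (Lcn2 at 48 h did not, adjusted p = 0.054), and 1 member passed at 16 h against 12 h and 0 at 48 h against 24 h. All 42 values of the members against control muscle kept their call under DESeq2's size factors in edgeR, no filter and edgeR's own filter. They kept it with the matched columns alone and with the class of total count as a term. They also kept it without the 3 columns rich in T and B cell genes, as did all 576 values with 1 column left out. No called value turned in direction in these settings. With 1 column left out, the uncalled Mpo value turned in direction at 4, 8, 12, 24 and 48 h, in at least 1 fit each. In the other settings the direction of the uncalled values was not compared. Mmp8 at 48 h also passed with library totals (2.04), in DESeq2 (1.43) and with only both groups in the fit (1.37). The block, the sets by total count, the T and B cell setting and leaving out columns were chosen after seeing the data. In the columns with totals over 25000000, 3 members passed at 20 h against control, 1 at 8 h against 4 h, 1 at 12 h against 8 h and 0 at 48 h against 24 h. In those under it the last 3 counts were 0, 0 and 0, with 3 libraries a group, and 6 member pairs were related. With 1 column left out, 0 to 4 members passed at 8 h against 4 h, 4 to 5 at 12 h against 8 h and 0 to 2 at 20 h against 16 h. At 20 h against 16 h, 2 passed in DESeq2, 1 with edgeR's own filter and 1 without the columns rich in T and B cell genes. With library totals, 2 passed at 12 h against 8 h and 2 at 24 h against 20 h. With the matched columns, 0 passed at 48 h against 24 h, the Csf3r ratio to S100a8 passed at 0 later times and the Mpo ratio at 1, although 48 h could pass for no gene there. Some of these settings keep fewer libraries, and the cause of each difference was not tested.

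Library totals in place of TMM moved the median log2 fold change over all genes to 0.27 (12 h), 0.29 (16 h), 0.23 (20 h), 0.52 (24 h) and 0.65 (48 h). No member value called under either scaling turned in direction, and the direction of the uncalled values was not compared. The calls over all genes were then 2176 higher and 400 lower at 12 h, 2069 higher and 628 lower at 16 h, 1181 higher and 166 lower at 20 h, 3441 higher and 625 lower at 24 h and 4346 higher and 408 lower at 48 h, so that 91.4% of the calls at 48 h were higher, against 61.4% with TMM. Between times it gave 314 lower at 12 h against 8 h, 1 higher and 55 lower at 16 h against 12 h, 411 higher at 24 h against 20 h and 33 lower at 48 h against 24 h. DESeq2 gave 5 higher and 198 lower at 16 h against 12 h, 95 lower at 20 h against 16 h and 89 higher at 24 h against 20 h. At 16 h against 12 h, DESeq2's size factors in edgeR gave 1 higher, and the class term 1 higher and 45 lower. The matched columns gave 491 lower at 20 h and 773 at 48 h against control, 449 higher at 8 h against 4 h, 1138 at 12 h against 8 h, 8 higher and 419 lower at 16 h against 12 h and 15 lower at 48 h against 24 h.

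With the headings as deposited, the members called numbered 0 (4 h), 0 (8 h), 1 (12 h), 2 (16 h), 2 (20 h), 4 (24 h) and 5 (48 h), and each of these calls was lower than control. Where it turned, the log2 fold change was -1.11, -0.63, -2.52 and -3.57 (at 16, 20, 24 and 48 h) for S100a8, -0.21, -1.74, -0.99, -2.93 and -4.16 (at 12, 16, 20, 24 and 48 h) for S100a9 and -0.87, -1.08, -1.22, -1.5 and -2.91 (at 12, 16, 20, 24 and 48 h) for Lcn2. It was -0.75, -1.57, -2.64, -3.95, -3.36, -5.52 and -6.09 (from 4 to 48 h, all 7 times) for Mmp8 and -1.03, -0.24, -1.24 and -2.75 (at 16, 20, 24 and 48 h) for Csf3r. Over all genes 102 higher and 107 lower were called at 4 h, 333 higher and 372 lower at 8 h, 690 higher and 1278 lower at 12 h and 1359 higher and 1889 lower at 20 h.

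Depth limited Mpo, Bpi, Prtn3 and Ltf, and the control level of Csf3r and Csf3, which rested on few reads. The 48 h group rests on 2 matched columns, and a sample of 6 to 8 rats a group leaves wide intervals for Mmp8 and Mpo.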
